A study of Mus musculus with 3 samples.

Results

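Glioma associated macrophages are 1 of 15 classes that the depositors named among CD45-selected immune cells of the mouse brain. The members are all cells whose deposited class carries exactly that name, 1207 of 12668 cells. Single-cell RNA libraries (10x Genomics Chromium) came from the right hemisphere of animals labelled no tumor, LGG (low grade glioma) and HGG, with 1 library per group. The class held 115 of 3544 cells in the no-tumor library (3.25%, 2.69 to 3.88%), 238 of 5024 in LGG (4.74%, 4.17 to 5.36%) and 854 of 4100 in HGG (20.8%, 19.6 to 22.1%). Ages were labelled as 0 to 2 weeks (no tumor), 3 to 4 weeks (LGG) and 6 to 8 weeks (HGG). The sources used here do not give what the weeks are counted from, the strain, the kind of cells injected or the number of animals pooled. The HGG group follows the library name and the description, since the title of that library reads no tumor, and every direction drawn from it rests on the label HGG. Papain digestion and positive selection for CD45, a surface protein of white blood cells and microglia, were common to the 3 groups.

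Gliomas draw in and reshape myeloid cells. Resident microglia, which settle in the brain before birth, and monocytes that enter from the blood both give rise to macrophages inside the tumor, and these cells can restrain T cells and supply growth factors to tumor cells. Genes used to mark them include Apoe (a lipid carrier), Spp1 (osteopontin, a secreted matrix protein), Gpnmb (a membrane glycoprotein of lipid-laden macrophages), Arg1 (arginase, which uses up the arginine that T cells need) and Ms4a7 (a membrane protein of brain macrophages that resting microglia largely lack). Values per gene were not analysed here, so the name of the class could not be checked against these markers, and the class is described by its depth, clusters, parallel names, mitochondrial percent and phase scores.

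With 1 library per group no test between groups exists and no p-value is given. Library, tumor group and labelled age cannot be told apart. Cells of a library are not replicates, so each interval (95%, exact Clopper-Pearson for a share, Katz log for a ratio of shares) covers counting error only. Where a share is 0 and an upper limit is printed alone, it is that of 3 cells, which lies below the exact limit. The words "called higher" and "called lower" are kept for shares that differ at least 1.5-fold and whose exact intervals lie apart. For values per cell, the spread given is the range between the lower and upper quartiles over cells. Of 12653 distinct barcodes, 15 occurred in more than 1 library, and 4 class cells carried such a barcode.

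HGG cells of the class held far more transcripts than the class cells of the other libraries. The median UMI count per cell (unique molecular identifiers, 1 per captured transcript) was 9947 without tumor (quartiles 6318 to 14693), 10216 in LGG (4818 to 15472) and 25204 in HGG (15298 to 31060). The HGG quartile range thus lay wholly above that of the no-tumor library, and overlapped that of LGG only at its lower edge. The HGG median was 2.47 times that of LGG and 2.53 times that of the no-tumor library, and the LGG median was 1.03 times that of the no-tumor library. Detected genes per cell moved less, with medians of 2989 without tumor, 2818 in LGG and 4242 in HGG, a ratio of HGG to LGG of 1.51. Cells with at least 20000 UMIs made up 10.4% of the class without tumor (5.51 to 17.5%), 11.3% in LGG (7.61 to 16.1%) and 65.3% in HGG (62.0 to 68.5%). That share was called higher in HGG against LGG (ratio 5.76, 4.02 to 8.24) and against no tumor (6.26, 3.66 to 10.7).

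The median of the microglia class, the resident macrophages of brain tissue, hardly moved between the libraries, but its share of deep cells did. Its median UMI counts were 8967 without tumor, 8646 in LGG and 9072 in HGG. At least 20000 UMIs were held by 1.81% of its cells without tumor (1.35 to 2.36%), 2.28% in LGG (1.68 to 3.02%) and 18.5% in HGG (16.8 to 20.3%), called higher in HGG than in LGG (ratio 8.11, 6.03 to 10.9) and than without tumor (10.2, 7.70 to 13.6). Deep HGG cells were therefore not particular to glioma associated macrophages, whose share of such cells was called higher than that of microglia in each library, at 5.77 times without tumor, 4.98 times in LGG and 3.53 times in HGG. The value without tumor rests on 12 class cells. Called doublets were kept in these counts and in those of the deepest cells below. Without tumor, 2 of the 8 class doublet calls lay between 3144 and 20677 UMIs. The doublet calls among deep cells were not counted. Within a library, which shares its sequencing depth, the class median was 1.11 times the microglia median without tumor, 1.18 times in LGG and 2.78 times in HGG. Among the other myeloid classes with enough cells, the ratio of the HGG to the LGG median was 1.67 for activated microglia, 1.26 for the class named macrophages, 0.842 for the class named Int Mo/Mac and 0.768 for border associated macrophages. The value for glioma associated macrophages was 2.47. Against no tumor the HGG medians were higher in other classes too, with ratios of 2.32 for the class named macrophages, 1.72 for Int Mo/Mac and 1.54 for border associated macrophages, beside 2.53 for glioma associated macrophages. Counting the cells in the deepest 10% of each library, the class held 32 of 355 without tumor (9.01%, 6.25 to 12.5%), 12 of 503 in LGG (2.39%, 1.24 to 4.13%) and 251 of 410 in HGG (61.2%, 56.3 to 66.0%). Set against its share of all cells of the library, the class was 2.78 times as frequent there without tumor, 0.504 times in LGG and 2.94 times in HGG. HGG and the no-tumor library were close on this measure, with 29.4% (26.4 to 32.6%) and 27.8% (19.9 to 36.95%) of their class cells in the deepest 10%, and LGG lay below both. The measure has unlike ceilings, however: the 410 deepest HGG cells could not hold all 854 class cells, whereas the 355 without tumor could hold all 115. The share of other cells below the class median has no such ceiling, and was 61.7% without tumor, 52.5% in LGG and 89.9% in HGG. The class held 4.31% of all UMIs of its library without tumor, 4.27% in LGG and 32.6% in HGG. Whether more RNA per cell or better capture of these cells lies behind the UMI counts was not tested.

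**Figure D1:**
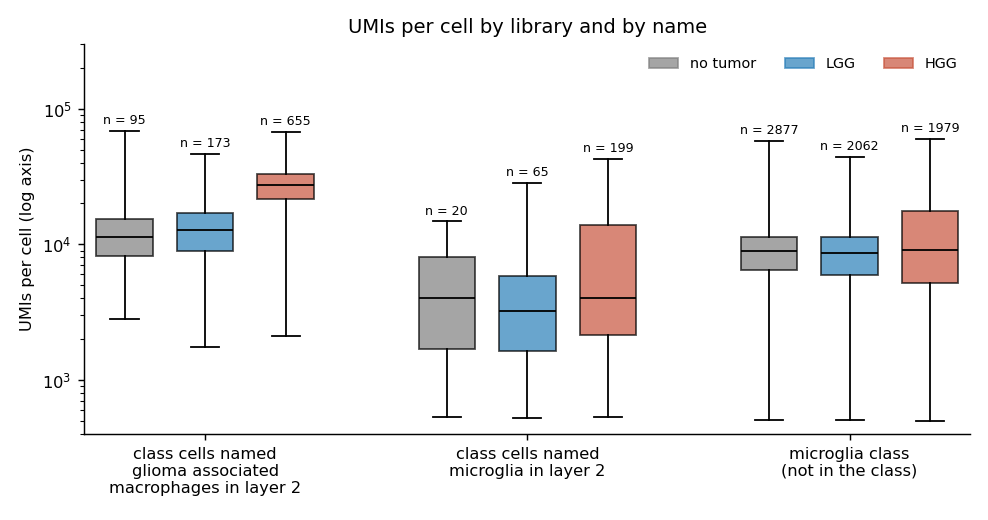
UMIs per cell (log axis) in class cells that the layer 2 name calls glioma associated macrophages, in class cells that it calls microglia, and in the separate microglia class, by library. Boxes span the quartiles with the median as a line, whiskers reach the lowest and highest cell, and n is the number of cells. The HGG box stands apart in the first set, with a median of 27363 UMIs against 12726 in LGG, whereas in the second set the medians lie between 3231 and 4022.

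A second layer of deposited names divided the class into cells named glioma associated macrophages (923) and cells named microglia (284). This division was that of the clustering at resolution 1.5 without exception: cluster 4 held all 923 and cluster 13 all 284. Clusters of these cells define the names, so the separation itself is no finding. Another deposited column with nearly the same heading calls all 1207 cells macrophages and is not the one used here. The cells named microglia made up 20 of 115 class cells without tumor (17.4%, 11.0 to 25.6%), 65 of 238 in LGG (27.3%, 21.8 to 33.4%) and 199 of 854 in HGG (23.3%, 20.5 to 26.3%). No pair of libraries met the call, with ratios of 0.853 for HGG to LGG (0.671 to 1.08), 1.34 for HGG to no tumor (0.883 to 2.03) and 1.57 for LGG to no tumor (1.002 to 2.46). Between UMI counts of 3144 and 20677, the range common to the libraries, the share of cells named microglia was 2.06 times as high in HGG as in LGG and was called higher. This range kept 224 of 854 HGG class cells and 176 of 238 in LGG. Its upper bound lies below the HGG lower quartile of the cells named glioma associated macrophages, and so leaves out most of them. The turn in direction thus follows largely from that bound and is no separate finding.

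The raised HGG median belonged to the first of these sets, whereas a larger part of cells with at least 20000 UMIs in HGG was seen in both. Cells that layer 2 names glioma associated macrophages had median UMI counts of 11317 without tumor, 12726 in LGG and 27363 in HGG (quartiles 21529 to 33163), and the HGG lower quartile was above the upper quartiles of the other libraries, 15428 and 16984. Cells that it names microglia had low medians everywhere, at 3998 without tumor (1685 to 8017), 3231 in LGG (1632 to 5792) and 4022 in HGG (2127 to 13948). Their ratio of HGG to LGG was 1.24, against 2.15 in the other set. Their HGG cells were spread widely, from 534 to 42711 UMIs. At least 20000 UMIs were held by 0 of the 20 cells named microglia without tumor, 2 of 65 in LGG and 33 of 199 in HGG.

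Mitochondrial transcripts separated the sets as well. The mitochondrial share of UMIs, used as a sign of cell quality, had a median of 2.22% in the class without tumor (quartiles 1.16 to 2.95%), 3.07% in LGG (1.80 to 4.64%) and 4.61% in HGG (3.31 to 5.57%). The same order was found in the microglia class (2.25%, 3.03% and 3.82%) and over all other cells (2.34%, 3.34% and 3.94%), so it was shared by the libraries as a whole. The class median differed from that of microglia by -0.0314 percentage points without tumor, 0.0391 in LGG and 0.794 in HGG. In cells that layer 2 names glioma associated macrophages the medians were 2.29%, 3.48% and 4.96% in that order, and the quartile ranges of the no-tumor library (1.39 to 3.02%) and HGG (4.22 to 5.77%) did not meet. In cells that it names microglia the medians were only 0.907%, 0.579% and 0.602%, with no rise towards HGG. Under 0.5% mitochondrial UMIs were found in 135 of these 284 cells (47.5%, 41.6 to 53.5%) and in 17 of the other 923 (1.84%, 1.08 to 2.93%). No mitochondrial UMI at all was counted in 42 of the 284 cells (14.8%, 10.9 to 19.5%), against 1 of the 923, and in 114 of 6918 cells of the microglia class (1.65%, 1.36 to 1.98%).

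The low mitochondrial percent was also present in deep HGG cells. At 20000 or more UMIs, the 33 HGG cells that layer 2 names microglia had a median of 1.86% (1.16 to 3.53%), whereas the 525 it names glioma associated macrophages had 4.97% (4.31 to 5.76%). From 10000 up to 20000 UMIs the HGG medians were 2.12% in 26 cells and 5.02% in 108 cells. Genes per cell in that range were 2839 and 3496, but at 20000 or more UMIs the order was reversed, with 4971 genes in the cells named microglia and 4647 in the others. In LGG the mitochondrial medians of both sets were closer from 5000 up to 10000 UMIs, at 2.93% in 14 cells and 3.16% in 38 cells, and LGG held only 5 cells named microglia above that range. Ribosomal gene UMIs, under 1% in most cells, ran the opposite way: the medians were 0.572%, 0.679% and 0.543% in cells named microglia and 0.434%, 0.413% and 0.377% in the others, for no tumor, LGG and HGG. The sources used here do not name the genes counted as ribosomal.

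Other deposited label sets did not follow the layer 2 names, and several gave the microglia name mostly to the cells that layer 2 calls glioma associated macrophages. The microglia name of the second SingleR set (names given by likeness to a reference) went to 879 of the 923 cells that layer 2 calls glioma associated macrophages (95.2%, 93.7 to 96.5%). Of the 284 cells that layer 2 calls microglia, the same set called 74 microglia (26.1%, 21.1 to 31.6%) and 205 macrophages (72.2%, 66.6 to 77.3%). The second VHove set behaved likewise, with microglia names for 803 of 923 cells (interval 84.7 to 89.1%) and for 43 of 284 (15.1%, 11.2 to 19.9%). It named the rest of the 284 mostly BAM (104 cells) and cDC (118 of the 119 class cells with that name). The first SingleR set called nearly all cells of both sets microglia, 920 of 923 and 264 of 284.

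Marker-list names split the class in another way. The label set here called the earlier label, a term that says nothing of when it was made, gave the microglia name to 274 of the 923 cells (29.7%, 26.8 to 32.8%) and to 0 of the 284, which allows a share of up to 1.06%. It called 158 of the 284 macrophages and a further 65 M1 macrophages, and all 55 class cells that it left unknown were among them. The SCSA sets of versions 5 and 8 also named 0 of the 284 microglia, and 263 and 274 of the 923. TAM 1 in the scANVI set covered 64 of the 284 cells and 4 of the 923, while the remaining 1139 class cells were TAM 2. In the first VHove set, 107 of the 109 class cells left unknown were among the 284, while 1084 class cells were TAM 2, and the PAntunes set gave both names to as many cells. Over the whole class, the microglia name went to 270 cells in SCSA versions 6 and 7, and to 274 in the set headed final and in the fine label. All label sets and clusterings were made from the same cells, so that agreement between them is not independent support for any name.

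**Figure D2:**
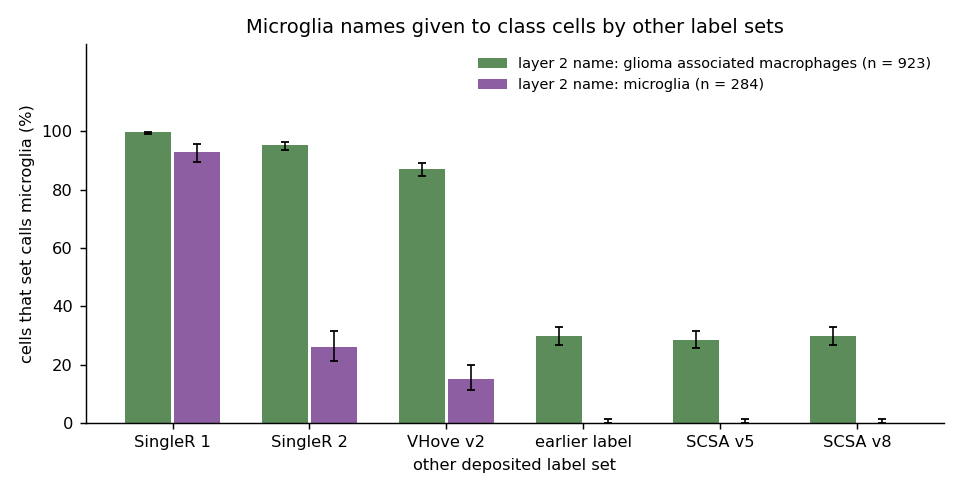
Percent of class cells that each of 6 other deposited label sets calls microglia, split by the layer 2 name (923 cells named glioma associated macrophages, 284 named microglia). Error bars are exact 95% intervals for counting error. In every set shown, the microglia name is less frequent among the cells that layer 2 calls microglia, at 92.96% against 99.67% in the first SingleR set and 26.06% against 95.23% in the second.

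Parallel names also differed by library within the class. The second SingleR set called 3 of 115 class cells macrophages without tumor (2.61%, 0.541 to 7.44%), 60 of 238 in LGG (25.2%, 19.8 to 31.2%) and 186 of 854 in HGG (21.8%, 19.1 to 24.7%). That share was called higher than with no tumor in LGG (ratio 9.66, 3.10 to 30.2) and in HGG (8.35, 2.71 to 25.7), both against 3 cells. The BAM name of the second VHove set stood at 3.48% without tumor (0.956 to 8.67%), 17.2% in LGG (12.6 to 22.6%) and 20.6% in HGG (17.9 to 23.5%), called higher in both tumor libraries. Its cDC name was at 1.74% without tumor (0.211 to 6.14%), 16.0% in LGG (11.6 to 21.2%) and 9.25% in HGG (7.39 to 11.4%), called higher in both tumor libraries than with no tumor and lower in HGG than in LGG (ratio 0.579, 0.405 to 0.830). Microglia, in the same set, was the name of 106 of 115 class cells without tumor (92.2%), 156 of 238 in LGG (65.5%) and 584 of 854 in HGG (68.4%). Of the 249 cells that the second SingleR set calls macrophages, 240 had a BAM, cDC or monocyte name in the second VHove set (96.4%), which is 67.4% of the 356 cells so named there.

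At resolution 5, the finest deposited clustering, 53 clusters divide the table and 15 of them hold class cells. The 7 clusters with at least 20 class cells cover 1186 of the 1207 cells. In 4 clusters most cells belong to the class: cluster 10 (372 of 378 cells, 98.4%), cluster 11 (318 of 373, 85.3%), cluster 17 (278 of 281, 98.9%) and cluster 34 (126 of 153, 82.4%). The remaining cells of cluster 11 were mainly activated microglia (37) and those of cluster 34 mainly microglia (24). Cluster 28 (41 of 205 cells), cluster 14 (26 of 329) and cluster 40 (25 of 107) are mostly microglia by class name. Cluster 17 holds 274 of the 284 cells that layer 2 calls microglia, and clusters 10, 11 and 34 hold none of them.

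The make-up of the class by cluster differed between HGG and the other libraries. Cluster 10 held 54.8% of the class without tumor (45.2 to 64.1%), 42.0% in LGG (35.7 to 48.6%) and 24.5% in HGG (21.6 to 27.5%). It was called lower in HGG than in LGG (ratio 0.583, 0.482 to 0.704) and than with no tumor (0.447, 0.364 to 0.548). Cluster 11 held 16.5% without tumor (10.3 to 24.6%), 14.3% in LGG (10.1 to 19.4%) and 31.0% in HGG (27.9 to 34.2%), called higher in HGG than in LGG (2.17, 1.57 to 3.01) and than with no tumor (1.88, 1.23 to 2.87). Both calls against LGG were also met within the common range of UMIs, at 0.486 and 1.95. That range kept only 224 of 854 HGG class cells, and cluster 17 held a larger share of these than in LGG. The value of cluster 10 there is thus no separate support. At 20000 UMIs and over, cluster 10 held 28.5% of HGG (24.8 to 32.4%) and 37.0% of LGG class cells (19.4 to 57.6%). Cluster 11 held 37.1% (33.1 to 41.25%) and 22.2% (8.62 to 42.3%) there. Directions stayed, but the intervals overlapped, with 27 LGG cells. With at most 5% mitochondrial UMIs, the call of cluster 11 against no tumor ended (1.71). The rise of cluster 11 over no tumor was also not seen in every range of UMIs. From the lowest range (under 5000 UMIs) to the highest (at least 20000), cluster 11 held 3.57%, 10.0%, 36.6% and 37.1% of HGG class cells. Without tumor these shares were 20.0%, 15.8%, 8.89% and 41.7%, of 20, 38, 45 and 12 class cells. The exact intervals lay apart only for 36.6% against 8.89%.

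Calls for the other clusters changed with the range of UMIs kept or were not met. Cluster 34 held 3 class cells without tumor (2.61%), 14 in LGG (5.88%, 3.25 to 9.67%) and 109 in HGG (12.8%, 10.6 to 15.2%), called higher in HGG than in LGG (ratio 2.17, 1.27 to 3.71) and than with no tumor (4.89, 1.58 to 15.2). Within the common range of UMIs its ratio of HGG to LGG turned to 0.611, and that of HGG to no tumor to 0.948, both without a call. With at most 5% mitochondrial UMIs its call against LGG ended (1.77). Cluster 17 met no call, at 18.3% without tumor (11.7 to 26.6%), 24.8% in LGG (19.4 to 30.8%) and 23.2% in HGG (20.4 to 26.2%). Within the common range of UMIs it was called higher in HGG, at 2.28 times LGG and 2.63 times no tumor. Only 34 of the 558 HGG class cells with at least 20000 UMIs lay in cluster 17, so this rise follows largely from the upper bound of the range. Cluster 14 was called lower in HGG than in LGG (ratio 0.256, 0.114 to 0.572) on 11 and 12 cells, with no call in the common range (0.214), and clusters 28 and 40 met no call. In all, 4 of the 7 clusters were called between HGG and LGG, 3 between HGG and no tumor, and 0 between LGG and no tumor. Over all cells of a library, 54.7%, 64.2% and 52.8% of the 53 fine clusters were called in either direction in these comparisons, so 4 of 7 and 3 of 7 do not set these clusters apart. The denominators differ, whole libraries against 115 to 854 class cells, so the rates are not directly comparable, and 0 of 7 is not read as a difference either. A cluster that comes mostly from 1 library may reflect that library rather than a kind of cell, and 265 of the 318 class cells of cluster 11 and 109 of the 126 of cluster 34 came from HGG. HGG also supplied 854 of all 1207 class cells, and 198 of the 278 in cluster 17, which met no call.

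**Figure D3:**
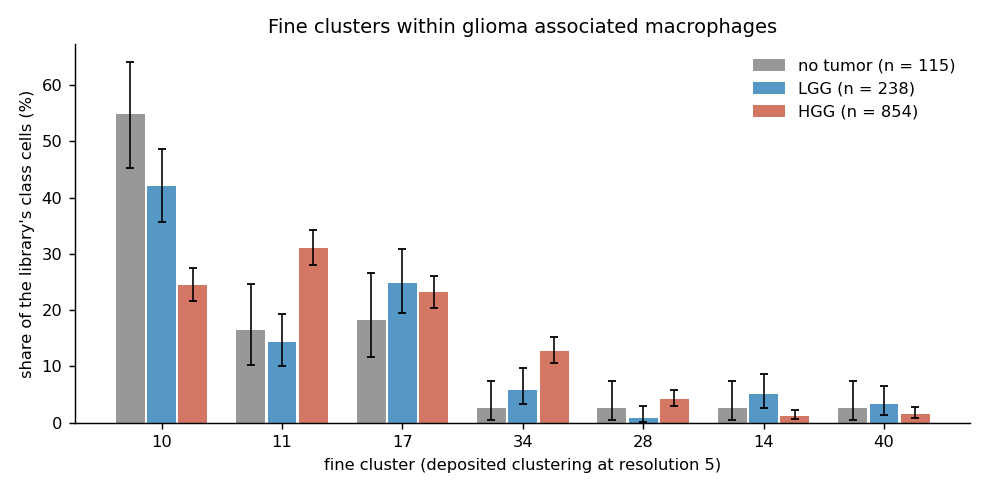
Share of each library's class cells (percent) in the 7 fine clusters with at least 20 class cells, for no tumor (115 cells), LGG (238) and HGG (854). Error bars are exact 95% intervals for counting error. Cluster 10 holds the largest share with no tumor (54.78%) and in LGG (42.02%), and cluster 11 in HGG (31.03%).

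Taken over all cells of a library, the 4 mostly-class clusters were all called higher in HGG than in LGG, where 20.8% of the 53 fine clusters were called higher and 34% lower. All 4 were also called higher in HGG than without tumor, against 35.8% of all fine clusters called higher and 28.3% lower. Between LGG and no tumor 1 of the 4, cluster 17, was called higher, against 32.1% of all clusters called higher and 20.8% lower. The class itself made up 3.25% of cells without tumor, 4.74% in LGG and 20.8% in HGG. A rise in clusters picked for holding mostly class cells follows largely from those shares and is no separate support. The HGG to LGG ratios ran from 2.57 for cluster 10 (2.04 to 3.25) over 4.08 for cluster 17 (3.07 to 5.43) and 6.62 for cluster 11 (4.98 to 8.80) to 8.26 for cluster 34 (5.11 to 13.3). With the microglia class left out of the denominator, cluster 10 was called lower in LGG than without tumor (ratio 0.357, 0.264 to 0.484), and its HGG to no-tumor ratio was 1.05 (0.802 to 1.37), with no call. Clusters 11, 17 and 34 were called higher in HGG than in either other library in that denominator too.

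Cells of the 3 deeper major clusters were alike in depth within HGG, with median UMI counts of 25934 in cluster 10, 26225 in cluster 11 and 29777 in cluster 34. In LGG the same clusters stood at 12986, 12764 and 14178 UMIs. Cluster 17 had 3953 without tumor, 3231 in LGG and 4117 in HGG. Cluster 28 was the deepest in HGG, with a median of 37484 UMIs in 36 cells, and 5 of its 41 class cells carried a doublet call. In cluster 11 the mitochondrial median was 1.45% without tumor (19 cells), 4.96% in LGG (34 cells) and 4.93% in HGG (265 cells), while in cluster 10 it was 2.36%, 3.24% and 5.05%. Both clusters thus had their lowest value without tumor, but LGG lay with HGG in cluster 11 and between the other libraries in cluster 10.

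**Figure D4:**
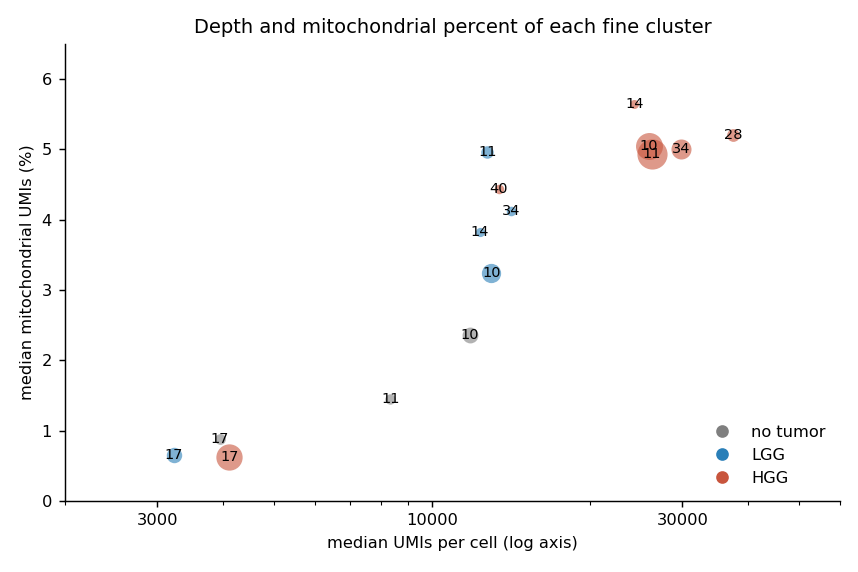
Median UMIs per cell (log axis) against the median mitochondrial percent of the class cells in each fine cluster and library. Numbers name the cluster, colours the library, and the area of a point grows with its number of cells. Clusters with under 10 class cells in a library are left out. Cluster 17 lies at the lower left in every library (medians of 3231 to 4117 UMIs and 0.6188 to 0.8812%), and the HGG points other than those of clusters 17 and 40 lie at the upper right.

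Names changed with the library inside single clusters too. In cluster 11 the second VHove set called 0 of 19 cells BAM without tumor, which allows a share of up to 15.8%, against 12 of 34 in LGG (35.3%, 19.7 to 53.5%) and 89 of 265 in HGG (33.6%, 27.9 to 39.6%). In cluster 17 it called 12 of 21 cells microglia without tumor (57.1%, 34.0 to 78.2%), 0 of 59 in LGG (up to 5.08%) and 35 of 198 in HGG (17.7%, 12.6 to 23.7%). Its cDC name covered 2 of 21 cells of cluster 17 without tumor (9.52%, 1.18 to 30.4%), 37 of 59 in LGG (62.7%, 49.1 to 74.96%) and 75 of 198 in HGG (37.9%, 31.1 to 45.0%). By contrast, 358 of the 372 cells of cluster 10 and 125 of the 126 of cluster 34 had the microglia name in that set. The earlier label told these last clusters apart, with the microglia name for 53 of 372 cells in cluster 10 (14.2%) and 104 of 126 in cluster 34 (82.5%).

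Phase calls gave HGG the lowest share of class cells called S or G2M, the phases of DNA replication and of preparation for division. In each of the 12668 cells the deposited phase was that of the higher score if above 0, and otherwise G1. Called S or G2M were 52 of 115 class cells without tumor (45.2%, 35.9 to 54.8%), 112 of 238 in LGG (47.1%, 40.6 to 53.6%) and 267 of 854 in HGG (31.3%, 28.2 to 34.5%). The ratio of HGG to LGG was 0.664 (0.562 to 0.786) and was called lower, narrowly, since 5 of the alternatives tried ended the call. In the microglia class the ratio was 0.916 (0.842 to 0.997), with no call. Most of these calls were S calls, with 40.0% of the class without tumor, 38.2% in LGG and 25.4% in HGG, and G2M calls were at 5.22%, 8.82% and 5.85%.

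Depth moved with the phase calls. Over the libraries together, 58.8% of class cells under 5000 UMIs were called S or G2M (51.5 to 65.8%) and 25.6% of those with at least 20000 (22.2 to 29.3%). In the microglia class these shares were 43.5% and 27.1%. Layer 2 names microglia 166 of the 194 class cells in the lowest range and 35 of the 597 in the highest, so the ranges also contrast both sets. From 10000 up to 20000 UMIs the class shares were 48.9% without tumor, 44.3% in LGG and 30.6% in HGG (22.9 to 39.1%), and from 5000 up to 10000 they were 42.1%, 36.5% and 46.0% with wide intervals. In cluster 10, HGG was called lower than LGG (25.4% and 46.0%, ratio 0.551, 0.402 to 0.755). A phase call from scores near 0 does not show cycling: the median S score was -0.0158 without tumor, -0.0093 in LGG and -0.0195 in HGG, and the median G2M score was -0.0503, -0.037 and -0.0427. An S or G2M score above 0.1 was reached by 5 class cells without tumor (4.35%, 1.43 to 9.86%), 23 in LGG (9.66%, 6.23 to 14.2%) and 27 in HGG (3.16%, 2.09 to 4.57%). Among the other myeloid cells of these libraries it was reached by 3.33%, 4.84% and 6.14%, so at this bound the class lay above them in LGG and below them in HGG. These cells pool activated microglia, border associated macrophages, Int Mo/Mac, macrophages, microglia, monocytes and neutrophils. Their share was not split by class, so it does not compare the class with any 1 of them. With a bound of 0.2 the LGG class lay below them, at 1.68% (0.460 to 4.25%) against 3.69%. The part of depth in the phase calls was not tested further, since cells could not be thinned to equal UMIs without values per gene.

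**Figure D5:**
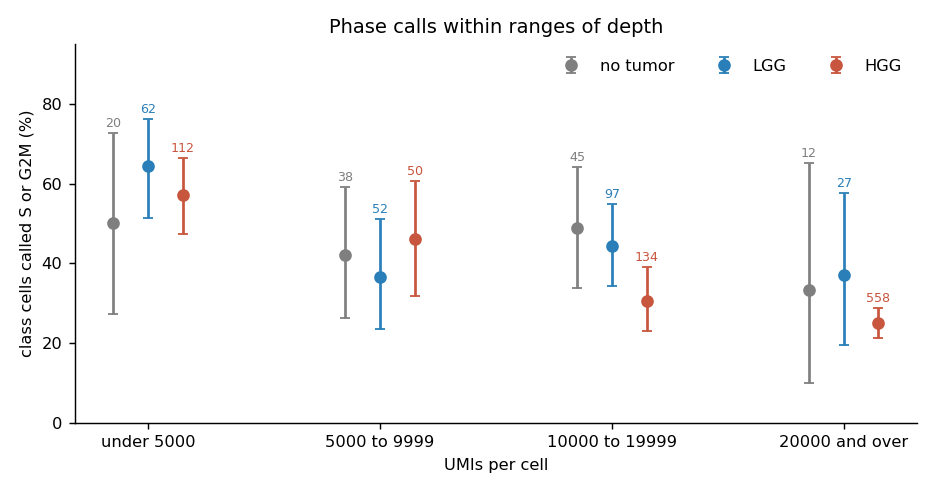
Percent of class cells called S or G2M within 4 ranges of UMIs per cell, by library. Points are shares, bars are exact 95% intervals for counting error, and the small numbers are class cells in the range. The intervals of HGG and LGG overlap in every range, and the lowest share is that of HGG at 20000 UMIs and over (24.91% of 558 cells).

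Doublet calls, which mark droplets thought to hold more than 1 cell, were deposited and kept. They stood at 8 of 115 class cells without tumor (6.96%, 3.05 to 13.2%), 1 of 238 in LGG (0.42%, 0.0106 to 2.32%) and 22 of 854 in HGG (2.58%, 1.62 to 3.87%). LGG was called lower than no tumor (ratio 0.0604, 0.00764 to 0.477), on 1 cell, and the call ended within the common range of UMIs (0 of 176 cells, and 2 of 91 without tumor). Among the other cells of each library the calls were at 2.71% without tumor, 4.22% in LGG and 3.48% in HGG. In the microglia class they were at 2.16% without tumor, 0.0485% in LGG and 1.16% in HGG (0.738 to 1.74%). Without tumor the share of glioma associated macrophages was called higher than that of microglia (ratio 3.23, 1.58 to 6.58). Their HGG share was 2.22 times that of microglia (1.24 to 3.96), with no call, and below that of the other cells pooled. In LGG there was no call either (8.66, 0.544 to 138). The HGG to LGG ratio of median UMIs was 2.47 without the called cells as well.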

How the data were processed

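The data were 1 table of 12668 cells. Per the labels' protocols, Cell Ranger 3.0.2 did the mapping (build mm10) and counting. The submitters' processing notes also list Seurat 4. Each cell has, as the authors deposited them, a UMI count and a gene count, the percent of mitochondrial and of ribosomal UMIs, S and G2M scores, phase, doublet call, 22 clusterings and parallel names. Filters on cells and the gene lists behind scores and percents are not stated. The lowest cell has 501 UMIs and 201 genes. Of 64 columns, 10 were not used.

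Cells were assigned to libraries by the deposited library name. UMIs summed over cells came to 32685080 (no tumor), 61554429 (LGG) and 61872213 (HGG). Shares, exact intervals, ratios, medians and quartiles were computed in Python 3.11.15 with pandas 2.3.3, numpy 2.4.6 and scipy 1.17.1, and figures were drawn with matplotlib 3.10.9. Where no cell was found, the upper limit printed is that of 3 cells. Named are all fine clusters with at least 20 class cells and the parallel names with at least 20 class cells in a library, from 13 other label columns. Alternatives were no doublet calls, at least 1000 UMIs, at most 5% mitochondrial UMIs, the common range of UMIs (highest 10th to lowest 90th percentile of the class, 3144 to 20677), membership by cluster or by layer 2 name, a minimum ratio of 2, and cells other than microglia as denominator. The call rule was tried on simulated counts at the sizes of the whole HGG and LGG libraries only. Calls within the class, with far fewer cells, were not covered. Planned summaries of genes and markers could not be run without values per gene. Members, lists and rules were chosen with earlier results of these data known.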

Additional observations from a re-analysis of the deposited data

How the results depend on the processing

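Of 222 values of the main comparisons, 192 were counted as unchanged, by a rule that differed with the kind of value. A called share had to keep its direction and call, with no limit on its size. A share ratio with no call had to stay uncalled and within its main interval. Comparisons of medians had to stay within bounds set by the intervals of both medians. Doublet shares had to stay within their exact interval, and counts of clusters within 1.5-fold. Within the common range of UMIs, which kept 91 class cells without tumor, 176 in LGG and 224 in HGG, the ratio of median UMIs was 1.305 for HGG to LGG and 1.42 for HGG to no tumor, as follows from limiting UMIs. There the ratio of genes was 1.08 and 1.04, and the mitochondrial median was higher by 0.977 and 1.86 percentage points. At most 5% mitochondrial UMIs left a difference of 1.58 points between HGG and no tumor. In cells that layer 2 names microglia alone, an alternative chosen after seeing the data, the UMI ratios were 1.24 and 1.01, the gene ratio of HGG to LGG was 1.28, and the mitochondrial differences were 0.0227 for HGG minus LGG, -0.305 for HGG minus no tumor and -0.328 for LGG minus no tumor.

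The lower share of S or G2M calls in HGG against LGG was not called with at least 1000 UMIs (0.668), in the common range (0.806), with at most 5% mitochondrial UMIs (0.7504), in cells that layer 2 names microglia (0.834) or at 20000 UMIs and over (0.673), the last chosen after seeing the data. Against no tumor it was called without doublet calls (0.648) and without the cells that layer 2 names microglia (0.649). The share of cells that layer 2 names microglia was 2.06 times as high in HGG as in LGG in the common range, where it was called, and 1.15 times at 5% or less mitochondrial UMIs. Against no tumor these values were 2.84 and 2.07, both called. The 5% limit lies near the HGG mitochondrial median of cells that layer 2 names glioma associated macrophages (4.96%). Their median without tumor was 2.29%. That limit thus removes many such cells in HGG, and the value of 2.07 follows largely from it. In the common range cluster 17 stood at 2.28 for HGG to LGG, and cluster 34 at 0.611 for HGG to LGG and 0.948 for HGG to no tumor. That range leaves out most HGG cells that layer 2 names glioma associated macrophages. Its values for cells named microglia and for cluster 17 therefore follow largely from its upper bound. Among cells other than microglia, 7 fine clusters were higher in HGG than with no tumor in place of 19, and 11 in LGG in place of 17. The class over microglia in HGG was 1.52 by genes. Doublet calls in the common range were at 2.20% without tumor, 0% in LGG and 0.893% in HGG. The causes were not tested. No paired analysis was possible because each group has 1 library, and for the same reason no library could be left out. Leaving out cells that layer 2 names microglia gives no value for their own share.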

Other observations

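The class did not stand out at coarse clustering. At resolution 0.1, 972 of its 1207 cells lay in a cluster in which they made up 11.4%, and at 0.2 again 0 clusters were mostly of the class. At 0.3 a cluster of 660 class cells (95.7% of its cells) appeared, and from 0.8 to 1.3 between 76.2% and 79.5% of the class lay in 1 mostly-class cluster. Of the 284 cells that layer 2 names microglia, 209 or 210 lay in 1 cluster of mostly other classes from 0.8 to 1.3. At 1.4, 276 of them filled a cluster with no other cell in it. At 1.5 the class lay wholly within 2 clusters and made up 96.55% and 100% of them. Past 1.5 the share in mostly-class clusters stayed between 90.6% and 99.2%.

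Class cells with an S or G2M score above 0.2 numbered 0 without tumor, 4 in LGG (1.68%) and 15 in HGG (1.76%). The other myeloid cells, pooled over their classes, stood at 1.94%, 3.69% and 4.68% in these libraries, higher than the class in each. At the bound of 0.1, the LGG class was above them. Among cells that layer 2 names microglia, a score above 0.1 was reached by 0 of 20 without tumor, 7 of 65 in LGG and 10 of 199 in HGG.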
